A study of Mus musculus with 12 samples.

Results

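Tbx3 and Tfcp2l1, 2 of 18193 genes on the array, were read from 8 of its 45101 probe sets, 5 annotated to Tbx3 alone and 3 to Tfcp2l1 alone, among 34945 probe sets that carry a single gene symbol. The pair was chosen by its log2 intensities across the groups of these same arrays, so the differences of both genes are given as a description with no test. The study compared Tcf3-/- (knockout) with Tcf3+/+ (wild-type) mouse embryonic stem cells, each in control medium or with 50 ng/ml recombinant Wnt3a for 24 h, in 4 groups of 3 Affymetrix arrays: knockout with Wnt3a, knockout in control medium, wild type with Wnt3a and wild type in control medium. Tcf3 is the older name of Tcf7l1, a DNA-binding protein of the Tcf/Lef family. All groups grew on gelatin without feeder cells, in medium with 15% fetal bovine serum and 1000 U/ml Lif, so the control cells also received the Lif signal. The labels name no cell line or clone and not the deleted part of the gene, and they do not say whether replicates were separate cultures. The spread between arrays may therefore be technical.

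Tbx3 is a T-box transcription factor and Tfcp2l1 is a transcription factor of the CP2 and grainyhead family. Both belong to the set of factors that keep mouse embryonic stem cells in the naive, self-renewing state, where Lif acts through Stat3 and Wnt through beta-catenin. Tcf7l1 represses many genes of that set, and beta-catenin lifts the repression when Wnt is present. Tfcp2l1 is a known target of Stat3, and Tbx3 has been linked to PI3K signalling downstream of Lif and, when raised in mouse embryonic stem cells, to primitive endoderm.

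Values are deposited intensities on the log2 scale, differences are those between means of groups, each with its standard error (SE) from limma fitted to all 12 arrays, and n = 3 arrays per group throughout. A gene counts as called where limma's p, adjusted over 13811 genes by the Benjamini-Hochberg method, was under 0.05, and the 40th percentile of all values, 5.56, served as the floor for a low signal. Across probe sets, arrays of the same group correlated between 0.995 and 0.998 and arrays of different groups between 0.974 and 0.993. The Tcf7l1 probe set was lower by 1.38 ± 0.10 in knockout cells in control medium (adjusted p = 1.17e-06) and by 1.28 ± 0.10 with Wnt3a (adjusted p = 7.75e-06), but stood well above the floor in knockout cells (8.89 to 9.58). The bacterial transcript dap, spiked into RNA during preparation, averaged 11.1 in knockout and 11.3 in wild-type cells with Wnt3a, and 4.08 in knockout and 4.11 in wild-type cells in control medium, so the medium and the preparation of its arrays cannot be told apart. The actin difference between 3' and 5' probe sets averaged 0.38 in knockout and 0.26 in wild-type cells with Wnt3a, and 0.35 in knockout and 0.21 in wild-type cells in control medium. Of 8 embryonic stem cell markers, all but Fut4 were above the floor in every group. Summed trophectoderm markers lay between 2980 and 3782 intensity units on knockout arrays and between 17865 and 34896 on wild-type arrays, with Elf5 below the floor in every group. Krt8 and Krt18 stood highest on the wild-type arrays, so these keratins weighed most in the wild-type sums, which do not describe the other markers. The group means of these keratins lay between 8.68 and 9.22 in knockout and between 13.01 and 13.66 in wild-type cells. Cdx2 read 6.94 or lower on every knockout array and 7.38 or higher on every wild-type array. Gata3 averaged above the floor in the wild-type groups only. The group means of Ascl2 lay between 7.56 and 7.71 in knockout and between 7.57 and 7.63 in wild-type cells. Of 9 trophectoderm markers tested, knockout cells in control medium had 4 called lower and 0 higher, against 22.3% and 19.9% of all genes. With Wnt3a in both genotypes, 5 were lower in knockout cells and 1, Eomes, was higher, against 14.7% and 13.2%. Summed fibroblast and feeder markers lay between 543 and 635 on knockout arrays and between 583 and 732 on wild-type arrays, with Col3a1 and Lum below the floor throughout. The part of these measures in the results below was not tested.

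Tbx3 was high in knockout cells in either medium and in wild-type cells with Wnt3a, and low in wild-type cells in control medium. Its brightest probe set, 1448029_at, read 10.79, 11.03 and 11.09 in knockout cells with Wnt3a, and knockout cells in control medium read 11.01, 10.81 and 10.69. In wild-type cells it read 9.62, 10.18 and 10.42 with Wnt3a, against 8.26, 8.25 and 8.38 in control medium. The knockout arrays of both media overlapped each other, the wild-type arrays with Wnt3a lay below all of them, and the wild-type arrays in control medium lay lowest with no overlap. The group means in that order were 10.97 ± 0.16, 10.84 ± 0.16, 10.07 ± 0.41 and 8.30 ± 0.07 (SD, n = 3 each), so the only neighbours in the order that did not differ beyond their spread were the knockout groups. In RNA from whole cultures, more cells with Tbx3 and more Tbx3 RNA per cell cannot be told apart.

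The other Tbx3 probe sets differ in brightness, and each is set only against itself. Probe set 1437479_x_at read 9.53, 9.78 and 9.95 in knockout cells with Wnt3a, against 9.32, 9.23 and 8.88 in those in control medium. In wild-type cells it read 8.44, 8.80 and 9.35 with Wnt3a, against 6.53, 6.56 and 6.52 in control medium. The wild-type arrays in control medium were again lowest without overlap, while wild-type replicate 3 with Wnt3a lay above the knockout arrays in control medium. Probe set 1445757_at read 7.49, 7.72 and 8.03 in knockout cells with Wnt3a, against 7.68, 7.69 and 7.24 in those in control medium. In wild-type cells it read 6.63, 7.01 and 7.17 with Wnt3a, against 5.98, 6.23 and 5.83 in control medium. It kept the order of the brightest probe set on a smaller scale. Probe set 1439567_at stayed between 5.64 and 6.26 on the 12 arrays, just above the floor, and 1444594_at between 4.31 and 4.77, below it on all of them. Against the brightest probe set over the 12 arrays, Pearson's r was 0.981 for 1437479_x_at, 0.969 for 1445757_at, 0.616 for 1439567_at and 0.368 for 1444594_at, as a description of probe sets that share the arrays and the groups.

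**Figure D1:**
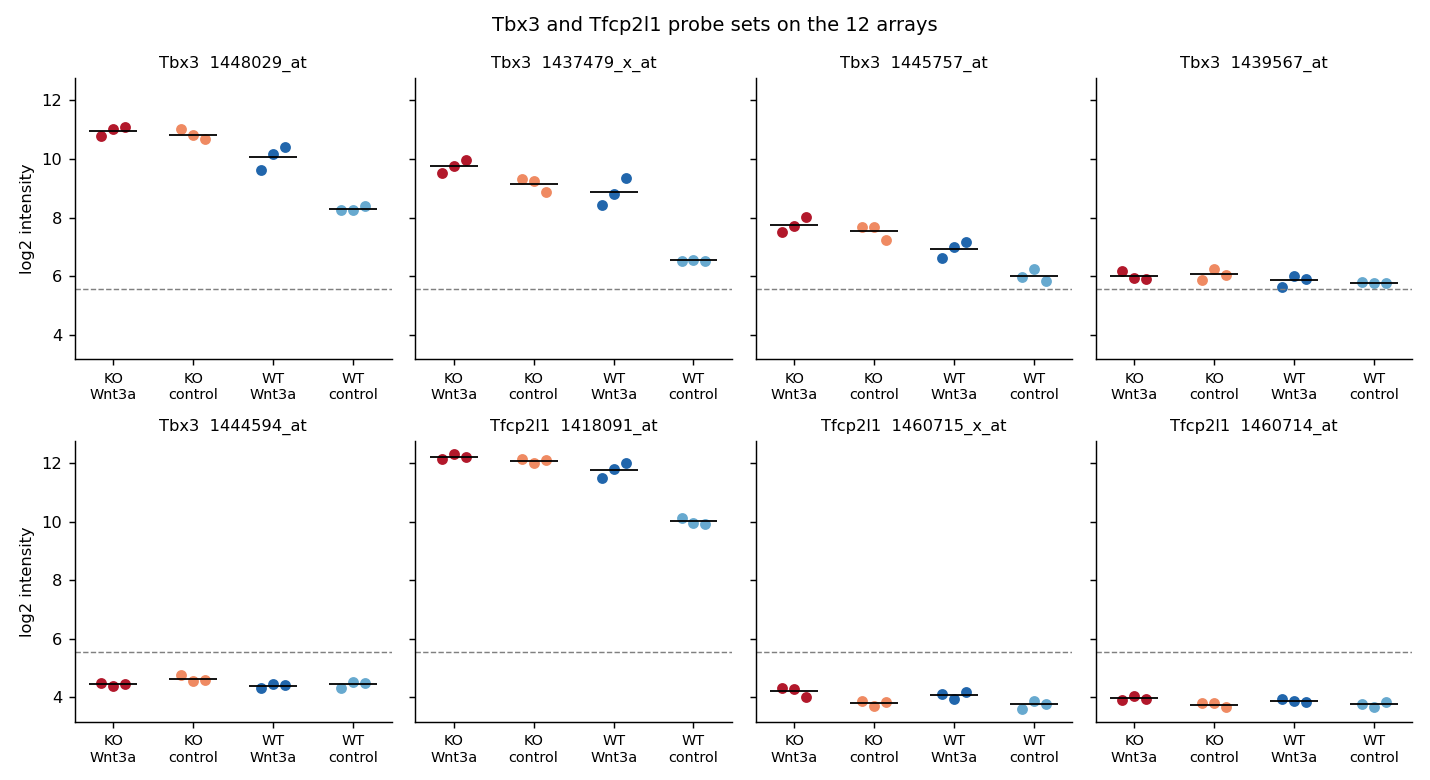
Each panel plots 1 probe set of Tbx3 or Tfcp2l1, with log2 intensity on the vertical axis, a point for each array, a bar at the mean of each group of 3 and a dashed line at the floor of 5.56. In the brightest Tbx3 panel the wild-type arrays in control medium sit between 8.25 and 8.38 and all others at 9.62 or higher. In the panel of Tfcp2l1 1418091_at they sit between 9.94 and 10.14 with all others at 11.48 or higher.

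Tfcp2l1 showed the same order of groups. Probe set 1418091_at read 12.15, 12.32 and 12.21 in knockout cells with Wnt3a, and knockout cells in control medium read 12.14, 12.002 and 12.10. Wild-type cells read 11.48, 11.79 and 12.001 with Wnt3a and 10.14, 9.95 and 9.94 in control medium. Every knockout array with Wnt3a lay above every knockout array in control medium, and wild-type arrays in control medium again stood far below the rest. The means were 12.23 ± 0.08, 12.08 ± 0.07, 11.76 ± 0.26 and 10.01 ± 0.11 (SD, n = 3 each). The highest wild-type array with Wnt3a all but met the lowest knockout array in control medium, and the means of knockout cells with and without Wnt3a differed by 0.15. Probe sets 1460715_x_at and 1460714_at stayed between 3.60 and 4.32 and between 3.66 and 4.04, below the floor on all 12 arrays, and no fold is given for them.

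The promoter of Tfcp2l1 is shown beside that of Gli2, the nearest tested gene on its higher-coordinate side, because the arrays of both genes followed genotype and medium, as described further on. The promoter sequences at hand held none for Tbx3, so that gene was not searched. The sequences are RefSeq's, build GRCm38.p6, the 250 bases before the annotated start, 5′ to 3′ on the gene's own strand. Tfcp2l1 lies on the plus strand at chr1:118627695-118627944 and Gli2 on the minus strand at chr1:119053620-119053869. Capitals mark the TATA box letters TATAAA.
Tfcp2l1: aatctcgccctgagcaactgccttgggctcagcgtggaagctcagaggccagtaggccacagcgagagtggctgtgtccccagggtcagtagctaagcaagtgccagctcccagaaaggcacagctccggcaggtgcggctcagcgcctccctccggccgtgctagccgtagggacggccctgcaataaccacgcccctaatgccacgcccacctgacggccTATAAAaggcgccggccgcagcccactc
Gli2: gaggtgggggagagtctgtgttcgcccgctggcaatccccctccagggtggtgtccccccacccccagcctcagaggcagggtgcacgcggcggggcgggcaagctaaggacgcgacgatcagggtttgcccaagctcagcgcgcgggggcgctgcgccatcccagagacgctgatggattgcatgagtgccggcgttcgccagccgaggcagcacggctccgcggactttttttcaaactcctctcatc
The motifs below were searched on both strands. TATAAA was found once, in Tfcp2l1, at bases -28 to -23 from the start, and 12.4% of 32851 RefSeq promoter windows of this length hold it. The Tcf/Lef motif was spelled CTTTGAA, with CTTTGAT, also CTTTGTA, and further CTTTGTT as its other forms. Neither window held any of them, and 14.8% of windows hold at least 1. Absent from both were also the T-box half-site GGTGTGA, held by 3.33%, and the Stat3 letters TTCCNGGAA, held by 0.913%. These matches describe the letters of the windows only.

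Among the 4 pairs of groups compared, both genes differed most between genotypes in control medium. Tbx3 was higher in knockout cells by 2.54 ± 0.17 (SE), or 5.82-fold, and Tfcp2l1 by 2.07 ± 0.11, or 4.20-fold. Only 10 of the 13811 genes tested had a larger rise than Tbx3, and 33 had a larger rise than Tfcp2l1. Over all genes the median difference was 0.01, and 42.2% were called, 19.9% as higher and 22.3% as lower. Probe set 1437479_x_at gave 2.61 for Tbx3 and 1445757_at gave 1.52, whereas 1439567_at gave 0.28. For each of these probe sets and for the brightest of both genes the groups were without overlap, as those of 26% of all genes were in that direction.

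Wild-type cells with Wnt3a lay nearer to the knockout level than to that of wild-type cells in control medium for both genes. Tbx3 was higher with Wnt3a by 1.77 ± 0.17, or 3.42-fold, with 14 genes showing a larger rise, and Tfcp2l1 by 1.75 ± 0.11, or 3.35-fold, with 15 genes above it. Here 41.5% of genes were called, 18.9% as higher and 22.6% as lower, and with each array centred on its median the share of higher genes among those called moved to 61.4%, against 45.6% as deposited. The other Tbx3 probe sets gave 2.32 for 1437479_x_at and 0.92 for 1445757_at, and 0.08 for 1439567_at, and all but the last were without overlap of arrays, as were 24.5% of all genes in that direction.

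In knockout cells the same treatment gave small differences. Tbx3 differed by 0.13 ± 0.17 between Wnt3a and control medium, a 1.10-fold difference with overlapping arrays. Tfcp2l1 differed by 0.15 ± 0.11, or 1.11-fold, with arrays that did not overlap, as was the case for 21.3% of all genes in that direction and 22.5% in the other. Larger rises were seen in 3702 genes for Tbx3 and in 3449 genes for Tfcp2l1, and 28% of genes were called, 13.3% as higher and 14.7% as lower. With arrays centred on their medians the share of higher genes among those called was 66.2%, against 47.5% as deposited. Probe set 1437479_x_at of Tbx3 departed from the brightest one here, with 0.61 and no overlap of arrays, whereas 1445757_at gave 0.21.

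With Wnt3a in the medium, the genotypes still differed but less. Tbx3 was higher in knockout cells by 0.90 ± 0.17, or 1.87-fold, and 159 genes had a larger rise. Tfcp2l1 was higher by 0.47 ± 0.11, or 1.38-fold, and 664 genes had a larger rise. No knockout array fell within the wild-type range for the brightest probe set of either gene, as in 20.3% of all genes in that direction. In this comparison 28% of genes were called, 13.2% as higher and 14.7% as lower. The interaction, the Wnt3a difference in knockout minus that in wild-type cells, was -1.64 ± 0.24 for Tbx3 and -1.60 ± 0.16 for Tfcp2l1. Only 6 genes had a more negative value than Tbx3 and 8 than Tfcp2l1, and 4.08% of genes were called, 2.2% with a positive and 1.88% with a negative value. The 5 comparisons share arrays, so their values are set side by side and no likeness between them is counted.

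**Figure D2:**
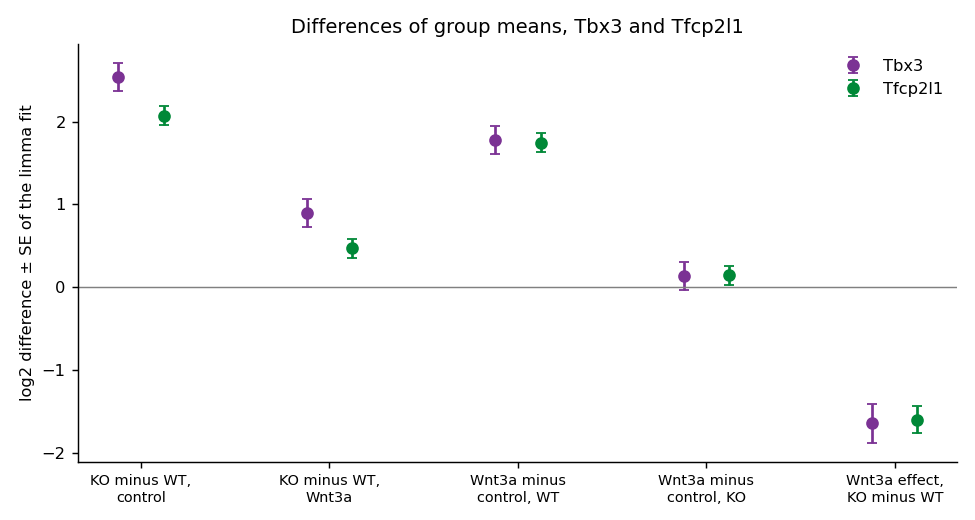
Points give the log2 difference of group means for Tbx3 (1448029_at) and Tfcp2l1 (1418091_at) in the 5 comparisons, and bars the SE of the limma fit, with n = 3 arrays per group. For Tbx3 they run 2.54, 0.90, 1.77, 0.13 and -1.64 across the axis, and for Tfcp2l1 2.07, 0.47, 1.75, 0.15 and -1.60.

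Across the groups the genes moved together, but not within every group. In wild-type cells in control medium, replicate 3 was highest for Tbx3 (8.38) and lowest for Tfcp2l1 (9.94). Over the 12 arrays Pearson's r between Tbx3 and Tfcp2l1 was 0.985, and between their deviations from the group means it was 0.803, on arrays that share their groups and their preparation. Most of the spread within a group came from wild-type cells with Wnt3a, where replicate 1 was lowest for both, 9.62 for Tbx3 and 11.48 for Tfcp2l1. That array was also the lowest of its group for 13 of 17 naive pluripotency factors, against 33.5% of all genes tested. In the other groups the array that was lowest most often was knockout Wnt3a replicate 1 for 10 factors (39.5% of all genes), knockout control replicate 2 for 11 (47.1%) and wild-type control replicate 1 for 12 (44.3%). Without wild-type Wnt3a replicate 1 the Wnt3a difference in wild-type cells was 2.00 for Tbx3 and 1.88 for Tfcp2l1, and the genotype difference with Wnt3a was 0.67 for Tbx3 and 0.33 for Tfcp2l1.

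**Figure D3:**
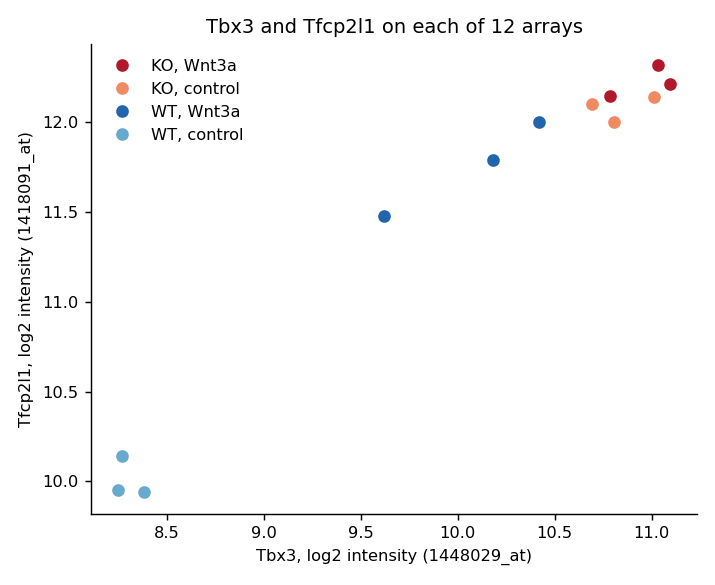
Each point is 1 array, with Tbx3 (1448029_at) on the horizontal and Tfcp2l1 (1418091_at) on the vertical axis, both as log2 intensity, coloured by group. The 3 wild-type arrays in control medium lie apart at the lower left, at 8.38 or lower for Tbx3, the wild-type arrays with Wnt3a run along a line between 9.62 and 10.42, and the 6 knockout arrays lie together at the upper right.

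Among 1458 genes whose group means span at least 1 log2 unit, 162 followed Tbx3 over the 12 arrays with r of at least 0.9 and 407 ran against it with r of -0.9 or below. For Tfcp2l1 the numbers were 117 and 230. These genes were ranked by pattern, so their differences carry no test here, and all of them share the arrays and the 4 groups. Yes1, a Src-family kinase, followed Tbx3 most closely (r = 0.995), reading 11.21, 11.31 and 11.46 in knockout cells with Wnt3a, against 11.31, 11.32 and 11.16 in those in control medium. In wild-type cells it read 10.80, 10.99 and 11.10 with Wnt3a, against 10.13, 10.07 and 10.13 in control medium. Its knockout arrays overlapped between media and its wild-type control arrays stood lowest, as for Tbx3. Next came Smtnl2 (0.995), the actin nucleator Cobl (0.992), the gap junction protein gene Gjc1 (0.989), the nuclear receptor gene Esrrb (0.988), Bdh2 (0.987), the junction protein gene Jam2 (0.985) and Tfcp2l1 itself (0.985), which ranked 9 once unnamed clones are counted.

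The genes closest to Tfcp2l1 were Nanog (0.990) and Esrrb (0.990), both transcription factors of naive cells, then the actin-binding protein gene Lima1 (0.985), Tbx3 (0.985), Yes1 (0.985), Gjc1 (0.982), Acad11 (0.982) and Ak4 (0.980). Running most against Tbx3 were Marveld3 (-0.989), Rassf1 (-0.989), Gramd1c (-0.989) and Gatm (-0.986). Against Tfcp2l1 they were the sialyltransferase gene St6gal2 (-0.996), Mfsd6 (-0.988), the growth factor gene Tgfa (-0.987) and Aff3 (-0.986). Part of these opposite patterns lay below the floor, which holds for the means of all groups but wild-type control in Gramd1c, St6gal2 and Mfsd6 and for both knockout means in Marveld3 and Gatm, so their order there is not measured. In wild-type cells in control medium St6gal2 read 5.79, 5.77 and 6.001. With the mean over all probe sets in place of the brightest, 5 of the 8 genes closest to Tbx3 were named again, but 2 of the 8 closest to Tfcp2l1, whose other probe sets were below the floor.

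By their brightest probe sets, relatives of the genes changed by smaller amounts than Tbx3 and Tfcp2l1 in control medium. Of 17 T-box symbols, 14 matched a probe set that carries that symbol alone, and 6 passed the filter on low values. T and Tbxt, both names for Brachyury, and Tbx10 matched none and were not examined, whether or not the array measures them. Of the 6 tested, 1 was called as higher and 1 as lower in knockout cells in control medium, close to the 19.9% and 22.3% of all genes. Mga, a large T-box protein that partners Max, was the one that rose, by 0.55 ± 0.08 (adjusted p = 0.000147), or by 0.33 with all its probe sets averaged. Its brightest probe set read 10.14, 10.10 and 10.06 in knockout and 9.42, 9.68 and 9.55 in wild-type cells, without overlap. With Wnt3a in wild-type cells Mga rose by 0.41 ± 0.08 (adjusted p = 0.00158), and the interaction of -0.30 ± 0.11 did not pass (adjusted p = 0.142). A dimmer Mga probe set, above the floor on all 12 arrays, averaged 7.60 with Wnt3a and 6.55 in control medium in knockout cells, and 7.64 with Wnt3a and 6.26 in control medium in wild-type cells. Its means were thus higher with Wnt3a in both genotypes, by more than for the brightest probe set, and it was not tested. Tbx15 fell by 0.42 ± 0.14 in knockout cells in control medium (adjusted p = 0.0272), close to the floor, a call that did not hold when any of 4 arrays was left out (adjusted p up to 0.114), namely knockout replicate 1 or 3 or wild-type replicate 1 or 3. Eomes, a T-box factor of trophectoderm and mesendoderm, differed by 0.40 ± 0.21 in control medium (adjusted p = 0.16). With Wnt3a in both genotypes Eomes was higher in knockout cells by 0.68 ± 0.21 (adjusted p = 0.032), on arrays that overlapped. The call was lost in 5 alternatives, with a difference of 0.45 without wild-type Wnt3a replicate 1. Another Eomes probe set, not tested, averaged 8.34 with Wnt3a and 7.76 in control medium in knockout cells. In wild-type cells it averaged 7.97 with Wnt3a and 7.39 in control medium. Tbx5 and Tbx19 were called in no comparison, and none of the 6 tested T-box relatives in the interaction by limma (1 at an unadjusted p under 0.05). Tbx20 was called as lower with Wnt3a in wild-type (adjusted p = 0.0134) and knockout cells (adjusted p = 0.0248), with both Wnt3a means below the floor. The knockout call was lost in 4 alternatives and the wild-type call in 1. Another Tbx20 probe set, not tested, averaged 5.88 in wild-type cells in control medium. In the other groups it averaged between 3.68 and 4.07, below the floor. Over the T-box list Wnt3a gave 1 higher and 1 lower in wild-type cells, against 18.9% and 22.6% of all genes. It gave 0 and 1 in knockout cells, against 13.3% and 14.7%. The knockout with Wnt3a gave 2 and 0, against 13.2% and 14.7%. These last counts became 0 and 0 without knockout Wnt3a replicate 2 or 3 or wild-type Wnt3a replicate 2.

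All 5 other members of the CP2 and grainyhead family were tested. Tfcp2, a CP2 factor, was called in no comparison and differed by -0.06 ± 0.13 between genotypes in control medium (adjusted p = 0.746). Grhl1, a grainyhead factor of epithelia, fell in knockout cells by 0.43 ± 0.10 in control medium (adjusted p = 0.00396) and by 0.77 ± 0.10 with Wnt3a (adjusted p = 0.000205). Ubp1 was lower in knockout than in wild-type cells, both with Wnt3a, by 0.30 ± 0.06 (adjusted p = 0.0037). Grhl2, another epithelial grainyhead factor, was lower with Wnt3a than in control medium within knockout cells, by 0.76 ± 0.10 (adjusted p = 0.000467). With all its probe sets averaged it was lower there by 0.31. Grhl3 rose in knockout cells by 0.35 ± 0.13 in control medium (adjusted p = 0.0437), a call lost in 9 of 20 alternatives (adjusted p up to 0.17). By limma 0 of the 5 were called in the interaction (2 at an unadjusted p under 0.05). In all, 1 rose and 2 fell with the knockout in control medium, 1 rose and 3 fell with the knockout in Wnt3a medium, and 2 fell with Wnt3a in wild-type and 2 in knockout cells. The shares of all genes that fell in these comparisons were 22.3%, 14.7%, 22.6% and 14.7%, and with 5 genes no count is read against them. Leaving out knockout control replicate 1 or 3 or wild-type control replicate 3 gave 0 higher and 1 lower in control medium, and leaving out wild-type Wnt3a replicate 2 or 3 gave 0 lower for Wnt3a in wild-type cells.

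Other factors of the naive network, listed as partners of Tbx3 and Tfcp2l1, mostly rose where those genes were high. In knockout cells in control medium 14 of 17 rose and 1 fell, against 19.9% and 22.3% of all genes, with a median difference of 0.83. The largest rises were in Tcl1, an activator of Akt (1.87 ± 0.14, adjusted p = 1.06e-06), Prdm14, a repressor of differentiation genes (1.74 ± 0.17, adjusted p = 1.05e-05), Esrrb (1.70 ± 0.11, adjusted p = 5.87e-07) and Nr0b1, a nuclear receptor without a DNA-binding domain (1.37 ± 0.18, adjusted p = 9.52e-05). Esrrb read 12.08, 12.002 and 12.02 in knockout and 10.27, 10.53 and 10.21 in wild-type cells, and its arrays did not overlap. Nanog rose by 0.99 ± 0.07 (adjusted p = 1.05e-06). Dppa3, a maternal-effect gene also known as Stella, was the one that fell, by 0.76 ± 0.15 (adjusted p = 0.00154). Klf5, a Kruppel-like factor, differed by 0.17 ± 0.07 (adjusted p = 0.0774). The list was chosen with these results known, and its counts are not independent evidence.

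With Wnt3a in wild-type cells 15 of the 17 rose, against 18.9% of all genes, and 0 fell (median 0.64). Klf4, a Kruppel-like factor downstream of Lif, rose by 1.62 ± 0.10 (adjusted p = 1.88e-06), the nuclear receptor gene Nr5a2 by 1.36 ± 0.11 (adjusted p = 1.05e-05), Esrrb by 1.31 ± 0.11 (adjusted p = 1.31e-05) and Prdm14 by 1.22 ± 0.17 (adjusted p = 0.000279). Fgf4 and Zfp57 did not pass, with -0.33 ± 0.14 (adjusted p = 0.0729) and -0.22 ± 0.11 (adjusted p = 0.141), and without wild-type Wnt3a replicate 3 the count was 13 higher and 2 lower. In knockout cells 5 rose and 3 fell with Wnt3a (median 0.10), against 13.3% and 14.7% of all genes. Zfp57, a zinc finger protein of imprinted loci, fell by 0.96 ± 0.11 (adjusted p = 0.000216) and Dppa3 by 0.65 ± 0.15 (adjusted p = 0.00845). Klf4 rose by 0.47 ± 0.10 (adjusted p = 0.00719) and Klf5 by 0.45 ± 0.07 (adjusted p = 0.00117), or by 0.21 with all its probe sets averaged, while Esrrb differed by 0.10 ± 0.11 (adjusted p = 0.523). The count of higher factors was 3 when knockout Wnt3a replicate 1 or 2 or knockout control replicate 2 or 3 was left out.

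With Wnt3a in both genotypes, 6 of the 17 were higher in knockout cells and 2 lower (median 0.17), against 13.2% and 14.7% of all genes, so the share of lower factors is near that of all genes. Dppa3 fell by 1.86 ± 0.15 (adjusted p = 7.83e-06), Tcl1 rose by 0.94 ± 0.14 (adjusted p = 0.000431), Fgf4 by 0.77 ± 0.14 (adjusted p = 0.00169) and Esrrb by 0.49 ± 0.11 (adjusted p = 0.00655). The number of lower factors was 1, and that of higher factors 4 or 5, without knockout Wnt3a replicate 2 or 3 or wild-type Wnt3a replicate 1 or 2. In the interaction 11 of the 17 were called, all negative, against 1.88% of all genes, with a median of -0.75. Prdm14 stood at -1.61 ± 0.25 (adjusted p = 0.00811), Esrrb at -1.20 ± 0.16 (adjusted p = 0.00454), Klf4 at -1.15 ± 0.15 (adjusted p = 0.00427) and Nanog at -0.74 ± 0.10 (adjusted p = 0.00502). Klf5 at -0.19 ± 0.10 did not pass (adjusted p = 0.323). Left-out arrays lowered the count to 6 for knockout control replicate 1 or wild-type Wnt3a replicate 2, and to 7 for knockout Wnt3a replicate 2 or wild-type control replicate 1 or 3.

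**Figure D4:**
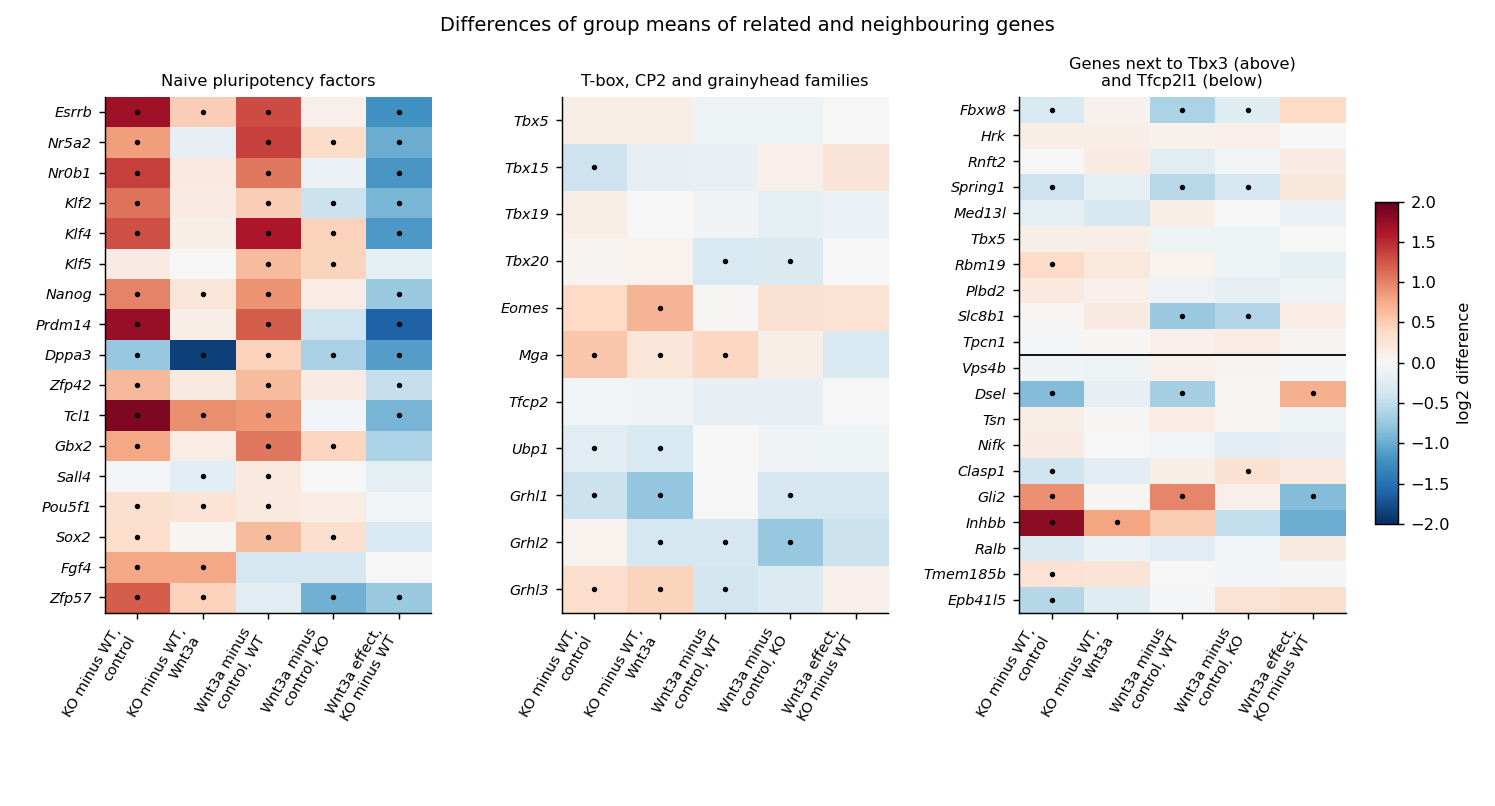
Colours give the log2 difference of group means in each of the 5 comparisons, in columns, for naive pluripotency factors, for the T-box, CP2 and grainyhead families, and for the 10 nearest tested genes of Tbx3 and of Tfcp2l1, and a dot marks limma's adjusted p under 0.05. In the naive panel 14 factors are called as higher in the first column and 11 as negative in the last, and in the family panel none is called in the last column.

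Of 18 tested genes of the Lif and Stat3 pathway, the signal upstream of Tfcp2l1 and Klf4, 7 rose and 5 fell in knockout cells in control medium (median -0.08), against 19.9% and 22.3% of all genes. The share that fell is near that of all genes. Klf4 and Gbx2 are on this list and on that of naive factors, so the counts of both lists share these genes. Lif itself fell by 1.12 ± 0.15 (adjusted p = 9.07e-05), or by 0.55 with all its probe sets averaged, and the kinase gene Jak2 by 0.90 ± 0.15 (adjusted p = 0.000388), while the receptor gene Lifr rose by 0.67 ± 0.11 (adjusted p = 0.000387), Stat3 by 0.43 ± 0.09 (adjusted p = 0.00174) and its feedback inhibitor Socs3 by 0.58 ± 0.08 (adjusted p = 0.000158). Wnt3a in wild-type cells gave 8 higher and 2 lower, against 18.9% and 22.6% of all genes, and 5 higher without wild-type control replicate 1 or 4 lower without wild-type control replicate 2. Socs3 rose with Wnt3a by 0.81 ± 0.08 in wild-type cells (adjusted p = 3.61e-05) and by 0.64 ± 0.08 in knockout cells (adjusted p = 0.000354). Junb, another Stat3 target, fell with Wnt3a by 0.82 ± 0.16 in wild-type (adjusted p = 0.00196) and by 0.99 ± 0.16 in knockout cells (adjusted p = 0.00124). Stat3 differed by 0.23 ± 0.09 with Wnt3a in wild-type cells (adjusted p = 0.0532), which passed in 5 of 20 alternatives. For Wnt3a in knockout cells 5 were higher and 1 lower, against 13.3% and 14.7% of all genes. The count of higher genes was 3 without knockout Wnt3a replicate 1 or 2 or knockout control replicate 2. The knockout with Wnt3a gave 3 higher and 4 lower, against 13.2% and 14.7%, and 1 higher without wild-type Wnt3a replicate 1. In the interaction 1 gene was called, Klf4, with a negative value, against 1.88% of all genes. Lifr, Stat3 and Socs3 in control medium were chosen after their values were seen.

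Of 17 tested genes of the PI3K and ERK pathways, the branches named for Tbx3, 4 rose and 6 fell in knockout cells in control medium, against 19.9% and 22.3% of all genes. Dusp4, a phosphatase acting on ERK, fell by 2.50 ± 0.16 (adjusted p = 4.53e-07), the kinase gene Akt1 by 1.18 ± 0.08 (adjusted p = 5.83e-07), or by 0.58 with all its probe sets averaged, and Dusp6, another ERK phosphatase, by 1.15 ± 0.09 (adjusted p = 2.27e-06), while the early response gene Egr1 rose by 1.45 ± 0.12 (adjusted p = 2.48e-06). Without wild-type control replicate 1 the counts were 3 higher and 3 lower. With Wnt3a the genotypes gave 3 higher and 8 lower, against 13.2% and 14.7% of all genes, with Dusp4 lower in knockout cells by 1.60 ± 0.16 (adjusted p = 2.78e-05) and Dusp6 by 0.98 ± 0.09 (adjusted p = 2.29e-05), and 4 higher and 5 lower without wild-type Wnt3a replicate 1. Wnt3a gave 6 higher and 4 lower in wild-type cells, against 18.9% and 22.6% of all genes, where Dusp6 fell by 0.75 ± 0.09 (adjusted p = 0.000113), and 3 higher and 2 lower in knockout cells, against 13.3% and 14.7% of all genes. The interaction was called for Akt1, Dusp4 and Etv5, against 4.08% of all genes, and for none of the list without wild-type control replicate 1 or 3.

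In knockout cells in control medium primitive endoderm genes differed widely between arrays. Of 13 tested, 4 rose and 0 fell relative to wild-type cells, against 19.9% and 22.3% of all genes. Those that rose were Cubn, an endocytic receptor (2.19 ± 0.59, adjusted p = 0.0104), the laminin gene Lama1 (1.37 ± 0.36, adjusted p = 0.009), the receptor gene Pdgfra (1.10 ± 0.35, adjusted p = 0.0223) and the nuclear receptor gene Hnf4a (0.58 ± 0.13, adjusted p = 0.00417). Cubn read 6.56, 9.85 and 8.24 in knockout and 6.14, 6.23 and 5.70 in wild-type cells, so the knockout arrays did not overlap the wild-type ones but differed widely among themselves. Sox17, which defines the lineage together with Gata6, read 5.48, 8.30 and 6.78 in knockout and 5.83, 5.76 and 5.05 in wild-type cells (1.31 ± 0.51, adjusted p = 0.055). Gata6 differed by 0.77 ± 0.30 (adjusted p = 0.0564). Without knockout control replicate 1, 10 of the 13 rose, and without replicate 2, 3 rose and 2 fell, and the differences of Cubn and Lama1 were 1.37 and 0.84. The call of Pdgfra was lost in 5 alternatives (adjusted p up to 0.0623), and its difference was 0.59 with all its probe sets averaged. The summed level of the list ran between 4356 and 11244 intensity units in knockout and between 5701 and 7314 in wild-type cells.

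With Wnt3a the same list gave 1 higher and 0 lower between genotypes, Hnf4a (0.59 ± 0.13, adjusted p = 0.00652), and summed levels between 7907 and 9138 in knockout and between 7418 and 8475 in wild-type cells. With only the 6 arrays compared in the fit, 8 of the 13 rose, against 13.2% of all genes in the fit to all arrays. Without knockout control replicate 1, whose spread enters the shared error, 3 rose, and without replicate 2, 5 rose. Wnt3a in wild-type cells gave 2 higher, against 18.9% of all genes, Lama1 (1.51 ± 0.36, adjusted p = 0.00632) and Pdgfra (1.15 ± 0.35, adjusted p = 0.0194, or 0.66 with all its probe sets averaged). The count was 6 with only the arrays compared in the fit, 4 with array median centring or the intensity trend, 5 without knockout control replicate 1 or 2 and 1 without wild-type Wnt3a replicate 3 or wild-type control replicate 3. Wnt3a in knockout cells gave 0 by limma (2 at an unadjusted p under 0.05), but 10 higher without knockout control replicate 2. The interaction gave 0 calls by limma, in the alternatives too, and 0 at an unadjusted p under 0.05. The part of these markers in the levels of Tbx3 and Tfcp2l1 was not tested.

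**Figure D5:**
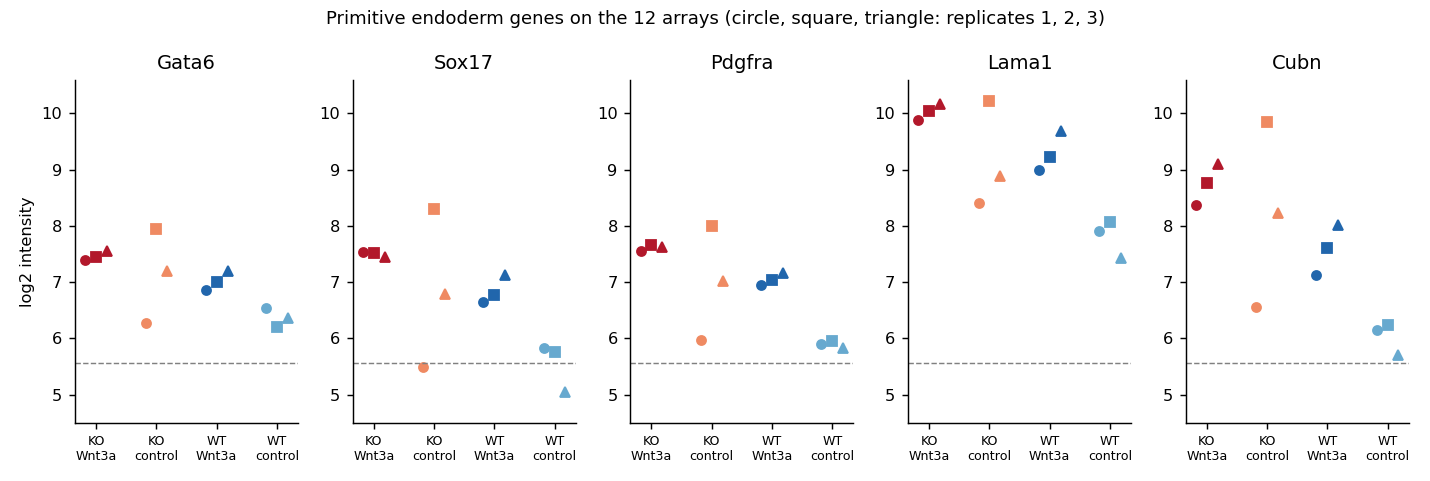
Log2 intensity of 5 primitive endoderm genes is plotted for each array, with marker shapes for replicates 1 to 3 and a dashed line at the floor of 5.56. In knockout cells in control medium the square, replicate 2, is highest and the circle, replicate 1, lowest in each panel, for example 9.85 and 6.56 for Cubn, while the 3 arrays of every other group lie closer together.

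Reported targets of repression by Tbx3 were lower in knockout cells in control medium, where Tbx3 was high, in 3 of 3 tested genes. Cdh1, the E-cadherin gene, fell by 0.74 ± 0.09 (adjusted p = 6.01e-05) and the cell cycle inhibitor gene Cdkn1a by 0.70 ± 0.15 (adjusted p = 0.00272). Cdkn2a, which encodes another cell cycle inhibitor, read 5.16, 4.65 and 5.18 in knockout and 6.09, 5.70 and 6.21 in wild-type cells, and with the knockout mean below the floor it was at least 1.36-fold lower (adjusted p = 0.000344). With Wnt3a in both genotypes Cdh1 was lower in knockout cells by 0.78 ± 0.09 (adjusted p = 0.000123), whereas Cdkn1a differed by -0.28 ± 0.15 (adjusted p = 0.2) and Cdkn2a was below the floor in both genotypes. With Wnt3a in wild-type cells Cdh1 was not called, Cdkn1a differed by 0.31 ± 0.15 (adjusted p = 0.117) and Cdkn2a was at least 1.36-fold lower with Wnt3a (adjusted p = 0.0238), a call lost without wild-type Wnt3a replicate 1 or wild-type control replicate 1 or 3. In knockout cells Cdkn1a rose with Wnt3a by 0.73 ± 0.15 (adjusted p = 0.00461), and Cdkn2a was called as higher (adjusted p = 0.0265) with both means below the floor. A list of 3 genes gives no share to set against the 22.3% of all genes called lower in control medium.

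The neighbours of each gene on its chromosome were taken by position alone, 5 tested genes on each side. Around Tbx3 on chromosome 5, from Fbxw8 through Med13l on the lower side and from Tbx5 through Tpcn1 on the higher side, 1 of 10 rose and 2 fell in knockout cells in control medium, against 19.9% and 22.3% of all genes. With Wnt3a 0 rose and 3 fell in wild-type cells, against 18.9% and 22.6% of all genes. Those that fell were Slc8b1 (-0.74 ± 0.08, adjusted p = 6.42e-05), Fbxw8 (-0.64 ± 0.08, adjusted p = 0.000109, or -0.34 with all its probe sets averaged) and Spring1 (-0.55 ± 0.07, adjusted p = 0.000133). In knockout cells 0 rose and 3 fell with Wnt3a, against 13.3% and 14.7% of all genes. The knockout with Wnt3a and the interaction each gave 0 calls by limma and 2 at an unadjusted p under 0.05. Of all genes, 28% were called for the knockout with Wnt3a and 4.08% in the interaction. With 10 genes no count is read against these shares. The adjacent Med13l and Tbx5 were called in no comparison.

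Around Tfcp2l1 on chromosome 1, 3 of 10 rose and 3 fell in knockout cells in control medium, against 19.9% and 22.3% of all genes. Gli2, a transcription factor of Hedgehog signalling and the next tested gene, rose by 0.91 ± 0.11 (adjusted p = 5.38e-05), and Inhbb, the activin beta B subunit gene beyond it, by 1.78 ± 0.24 (adjusted p = 9.07e-05). Gli2 read 11.10, 10.86 and 10.83 in knockout cells with Wnt3a, against 10.84, 10.76 and 10.87 in those in control medium. In wild-type cells it read 10.70, 10.86 and 11.09 with Wnt3a, against 9.80, 10.11 and 9.81 in control medium. Its wild-type control arrays were lowest without overlap and the other 3 groups overlapped. With Wnt3a Gli2 rose by 0.98 ± 0.11 in wild-type cells (adjusted p = 8.32e-05), differed by 0.11 ± 0.11 in knockout cells (adjusted p = 0.529), and differed by 0.05 ± 0.11 between genotypes with Wnt3a, within the spread (adjusted p = 0.808). Its interaction was -0.87 ± 0.16 (adjusted p = 0.0175), and adjusted p was 0.0561 without wild-type control replicate 3. Over the 12 arrays r with Tfcp2l1 was 0.946.

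Inhbb read 9.84, 9.67 and 9.53 in knockout cells with Wnt3a, against 10.18, 10.12 and 10.21 in those in control medium. In wild-type cells it read 8.41, 8.95 and 9.32 with Wnt3a, against 8.04, 8.97 and 8.15 in control medium. It was high in knockout cells, but its wild-type arrays overlapped between media, and the Wnt3a difference there, 0.51 ± 0.24, did not pass (adjusted p = 0.109), except without wild-type Wnt3a replicate 1 or wild-type control replicate 2 (adjusted p down to 0.00994). Dsel, an enzyme gene of dermatan sulfate synthesis on the lower side, ran the other way. It fell by 0.87 ± 0.09 in knockout cells in control medium (adjusted p = 1.35e-05) and by 0.67 ± 0.09 with Wnt3a in wild-type cells (adjusted p = 2e-04), with an interaction of 0.71 ± 0.13 (adjusted p = 0.0151) and r of -0.967 with Tfcp2l1. The nearest gene on the lower side, Clasp1, fell by 0.40 ± 0.08 in knockout cells in control medium (adjusted p = 0.00132), but by 0.04 when all its probe sets were averaged (adjusted p = 0.648). Over the other comparisons the neighbours gave 1 higher and 1 lower for Wnt3a in wild-type cells, against 18.9% and 22.6% of all genes. They gave 1 higher for Wnt3a in knockout cells and 1 higher for the knockout with Wnt3a, against 13.3% and 13.2%. There was 1 interaction of each sign, against 2.2% positive and 1.88% negative among all genes.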

How the data were processed

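RNA of 12 samples was measured on Affymetrix arrays. Intensity values of 45101 probe sets were deposited as 1 table. The submitters' processing notes name RMA, with no version or parameters. The deposited intensities proved linear, so their log2 was used, without a pseudocount and without detection calls. Precision is limited by having 3 arrays in each group (median SE of a difference 0.0886).

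Symbols came from GEO's annotation of the platform, and 18032 of 18194 Entrez identifiers matched the RefSeq table of GRCm38.p6. Of the probe sets, 932 carried several symbols and 9160 none. A gene was represented by its probe set with the highest mean and kept where at least 3 arrays lay above the 40th percentile (log2 5.56, intensity 47.2), which left 13811 genes. The 4 groups entered a limma model (limma 3.58.1, R 4.3.3) over all 12 arrays, without a replicate block, and p-values were adjusted by Benjamini-Hochberg with a threshold of 0.05. Same-numbered arrays of different groups did not deviate together (18 pairs, r between -0.257 and 0.244, 4 over 0.1), so the numbers were not taken as pairs. On simulated data for the knockout effect in control medium, over 13811 genes, 97 of 100 genes changed by log2 1 and 100 of 100 changed by log2 2 were recovered, with 13 false calls.

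Both genes and all lists were chosen with earlier results of these data known. Named genes were all probe sets of both genes, their tested family members, the 4 largest called changes and the 2 largest that did not pass in each list and comparison (printed in part), the 8 most and 4 least alike genes by Pearson's r, passing over clone names, the 5 nearest tested genes on each side, and Tcf7l1. Of 118 list symbols, 11 were not matched and 11 fell under the filter.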

Additional observations from a re-analysis of the deposited data

Results flagged for a closer look

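In the genes below the Wnt3a difference in knockout cells departed from that in wild-type cells by the interaction test of the limma fit. Tbx3 (-1.64) and Tfcp2l1 (-1.60) have no such test, because they were chosen by their pattern. The lists that gave most of the genes below were also chosen with earlier results known, and Esrrb and Nanog followed Tfcp2l1 closely. The p-values of these genes are therefore not independent evidence. The interaction was -1.61 for Prdm14 (adjusted p = 0.00811), with a Wnt3a difference of -0.39 in knockout and 1.22 in wild-type cells. It was -1.20 for Esrrb (adjusted p = 0.00454), -1.15 for Klf4 (adjusted p = 0.00427) and -0.74 for Nanog (adjusted p = 0.00502), which kept their calls in every alternative. It was -1.16 for Nr0b1 (adjusted p = 0.0328), a call lost in 9 alternatives that left out an array (adjusted p up to 0.0928). Among pathway genes it was 0.56 for Akt1 (adjusted p = 0.0203, up to 0.09 over the alternatives, where it was 0.29 with all its probe sets averaged), 0.89 for Dusp4 (adjusted p = 0.0453, up to 0.108) and -0.72 for Etv5 (adjusted p = 0.0206, up to 0.0603). For Cdkn2a the fitted value was 1.06 (adjusted p = 0.0291, up to 0.0828), but 3 of the 4 group means lay below the floor, so its size is not a measured difference. Next to Tfcp2l1 it was -0.87 for Gli2 (adjusted p = 0.0175, up to 0.0561) and 0.71 for Dsel (adjusted p = 0.0151).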

How the results depend on the processing

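The differences of Tbx3 and Tfcp2l1 kept their sign in all alternatives. Averaging all probe sets of a gene, those under the floor included, moved Tbx3 to 1.43 for the knockout in control medium, 0.56 with Wnt3a, 1.01 for Wnt3a in wild type and -0.87 for the interaction, and Tfcp2l1 to 0.71, 0.22, 0.74 and -0.49 in the same order. Left-out arrays kept the knockout difference in control medium between 2.45 and 2.61 for Tbx3 and between 2.03 and 2.13 for Tfcp2l1. With Wnt3a it ran between 0.67 and 1.07 for Tbx3 and between 0.33 and 0.59 for Tfcp2l1. The Wnt3a difference in knockout cells was 0.06 for both genes with repeated quantile normalization, against 0.13 and 0.15 as deposited. With array centring it was 0.20 for Tbx3 and 0.21 for Tfcp2l1. The replicate block left Tbx3 at 2.54 and Tfcp2l1 at 2.07 in control medium and gave 5600 calls there. It gave 3622 with Wnt3a, 5474 and 3553 for Wnt3a in wild-type and knockout cells and 394 interactions. The labels do not say whether the replicate numbers pair samples. With an array left out, calls ran between 4778 and 5951 for the knockout in control medium, 2813 and 3959 with Wnt3a, 4259 and 5921 for Wnt3a in wild type, 2393 and 4011 in knockout cells, and 151 and 952 for the interaction, whose count as deposited was 563; the cause was not tested. The small differences that changed sign when an array was left out were those of Gli2 (-0.047 to 0.15) and Cdkn2a (-0.054 to 0.13) between genotypes with Wnt3a, neither called. Of the comparisons of single genes with their alternatives, 120 lost a call and 36 gained one. Signal under the floor limits 3 probe sets of the 8.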
